A study of Mus musculus with 141 samples.

Results

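Claudins are the membrane proteins that form the strands of tight junctions, the seals between neighbouring epithelial or endothelial cells, and 10 of them were followed here through liver, lung and kidney of 47 Collaborative Cross mouse strains. The 10 genes, of 24423 in the files, were taken by name: Cldn1, Cldn2, Cldn3, Cldn5, Cldn8, Cldn10, Cldn14, Cldn16, Cldn18 and Cldn19. Collaborative Cross strains are recombinant inbred lines, each carrying a different mix of the genomes of the same founder strains. Each strain gave 1 male mouse of 8 to 12 weeks and that mouse gave 1 library per tissue (141 libraries, 47 per tissue), so a strain cannot be told apart from the single mouse that stands for it. Every mouse spent 6 hours a day on weekdays in a chamber supplied with clear air, and no other treatment or group is named, so the comparisons were between tissues of the same mice and across strains within a tissue.

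Some claudins tighten the junction and others form selective pores through it, so the claudins a tissue makes help to set what passes between its cells. Cldn2 forms a pore for small cations and water in the leaky proximal tubule. Cldn16 and Cldn19 act together in the thick ascending limb, where calcium and magnesium are taken back between cells, and mutations of either cause loss of magnesium in the urine in people. Cldn8 belongs to the tight distal nephron, Cldn10 has splice forms with different ion selectivity along the nephron, and Cldn14 restrains the paracellular route for calcium. Cldn1, Cldn2 and Cldn3 are found at the junctions that seal bile canaliculi in liver. Cldn5 is the main claudin of endothelium, Cldn18 is a claudin of alveolar epithelium and stomach, and Cldn3 occurs in alveolar and airway epithelium.

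The tissue labels were checked by markers. Slc34a1 of the proximal tubule ran from 1414 to 5577 TPM in kidney and stayed at or under 59.3 elsewhere, Sftpc of alveolar type 2 cells ran from 3762 to 38784 in lung and stayed at or under 117 elsewhere, and Cyp1a2 of hepatocytes ran from 178 to 890 in liver and stayed at or under 5.69 elsewhere. Total counts per library ranged from 1738046 to 42158454 (median 9043226). The precursor of ribosomal RNA, Rn45s, took a share of these counts that varied widely between libraries, from 0.321 to 69.0% in liver (median 34.9%), 0.696 to 71.7% in lung (median 18.0%) and 0.146 to 63.1% in kidney (median 25.4%). Levels are therefore given as the deposited TPM (transcripts scaled to a fixed total per library, a unit that corrects for gene length and library size), while tests used counts scaled by TMM, which does not let a single abundant RNA set the scale. Over strains within a tissue, r between log2 TPM of a member and the log2 Rn45s share lay between -0.71 and -0.07 in all 16 combinations of member and tissue with a median of 10 counts or more, and r between the TMM value and that share lay between -0.35 and 0.33. In kidney, for example, r between log2 TPM of Cldn2 and the log2 Rn45s share was -0.71, and r between the TMM value and that share was -0.09. In the liver library with the highest Rn45s share, that of CC033 (69.0%), 4 members had their lowest liver TPM: Cldn1, Cldn2, Cldn3 and Cldn5. Leaving Rn45s and Lars2 (the next most counted gene) out of the TPM total moved all those lows to other strains. Bulk tissue was sequenced, so fewer cells of a type and less RNA per cell cannot be told apart.

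Promoters are shown for 5 members on which the results turn: Cldn2, Cldn16 and Cldn19, which were highest in kidney, and Cldn3 and Cldn5, which rose and fell together across strains in lung. The bases are the 250 upstream of the first RefSeq start listed for each gene, in assembly GRCm38.p6 and read on the strand of the gene (+ for all 5), at chrX:139800558-139800807, chr16:26462885-26463134, chr4:119255191-119255440, chr5:134985964-134986213 and chr16:18776597-18776846. Capitals mark a match on either strand to one of 4 motifs, namely the TATA box with the letters TATAAA, the GC box with the letters GGGCGG, the CCAAT box with the letters CCAAT, and the core of the HNF1 motif with the letters GTTAAT. No match overlapped another.
Cldn2: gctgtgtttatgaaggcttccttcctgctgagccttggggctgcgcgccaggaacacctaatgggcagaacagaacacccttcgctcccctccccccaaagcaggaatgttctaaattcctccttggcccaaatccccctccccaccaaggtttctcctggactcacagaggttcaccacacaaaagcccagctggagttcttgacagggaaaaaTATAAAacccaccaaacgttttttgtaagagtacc
Cldn16: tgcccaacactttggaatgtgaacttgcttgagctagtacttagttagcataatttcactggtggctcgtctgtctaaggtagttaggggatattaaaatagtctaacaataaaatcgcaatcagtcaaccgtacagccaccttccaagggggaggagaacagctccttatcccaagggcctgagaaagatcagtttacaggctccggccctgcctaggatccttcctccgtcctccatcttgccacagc
Cldn19: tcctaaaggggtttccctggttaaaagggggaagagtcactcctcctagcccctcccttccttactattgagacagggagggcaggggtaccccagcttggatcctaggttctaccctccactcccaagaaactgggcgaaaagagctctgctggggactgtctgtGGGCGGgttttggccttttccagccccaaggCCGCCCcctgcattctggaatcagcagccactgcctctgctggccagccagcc
Cldn3: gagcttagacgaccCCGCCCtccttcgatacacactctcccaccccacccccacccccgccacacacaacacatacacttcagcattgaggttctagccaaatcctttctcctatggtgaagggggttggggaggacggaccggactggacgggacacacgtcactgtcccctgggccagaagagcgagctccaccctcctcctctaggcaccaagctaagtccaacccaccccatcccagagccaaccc
Cldn5: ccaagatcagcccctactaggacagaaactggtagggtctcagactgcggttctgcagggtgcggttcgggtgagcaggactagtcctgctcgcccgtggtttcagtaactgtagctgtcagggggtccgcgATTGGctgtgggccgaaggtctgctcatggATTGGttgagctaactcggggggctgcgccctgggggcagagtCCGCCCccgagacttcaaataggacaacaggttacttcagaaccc
Cldn2 held a TATA box 35 bases upstream of its start, and 12.3% of 32536 mouse promoters of this length held those letters. Cldn19 held 2 GC boxes and Cldn3 held 1, a motif of 33.0% of promoters, while Cldn5 held 1 GC box and 2 CCAAT boxes, the latter in 33.8% of promoters. Cldn16 held none of the 4 motifs, and no HNF1 core, found in 6.47% of promoters, was in any of the 5. The table used had entries for 9 members, Cldn8 being the one without.

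Of the 10 genes, 8 had counts. Cldn10 (14:119187093-119274711, plus strand; NCBIM37 with GENCODE M1 annotation, as for all positions of genes here) and Cldn18 (9:99589880-99617686, minus strand) were listed at 0 in all 141 libraries, including kidney and lung respectively. The files name 6 RefSeq transcripts for Cldn10 and 4 for Cldn18, and the authors kept reads that aligned to a single place. Of the genes with 6 or more transcripts named, 29.8% were at 0 in every library, against 6.37% of the genes with 1 transcript, with no steady order between them (8.67% at 2 transcripts, 6.20% at 3, 15.8% at 4 and 5.58% at 5). Slc22a8, a proximal tubule transporter with 3 transcripts named, had 0 to 4 counts in kidney, while its relative Slc22a6, with 1 transcript, had a median of 8250 counts there. That is 1 pair of genes, and over all genes the share at 0 with 3 transcripts (6.20%) was near that with 1 (6.37%). The values of Cldn10 and Cldn18 were not read as absence of the RNA, and the part of the transcript number in them was not tested. No 50-base window of the members' annotated exons was found a second time in the reference genome. Of these windows, 54.85% of those of Cldn10 and 54.2% of those of Cldn18 lay in 1 annotated transcript only. For Cldn14, which had counts, the share was 28.3%. The bearing of these shares on the values at 0 was not tested.

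**Figure D1:**
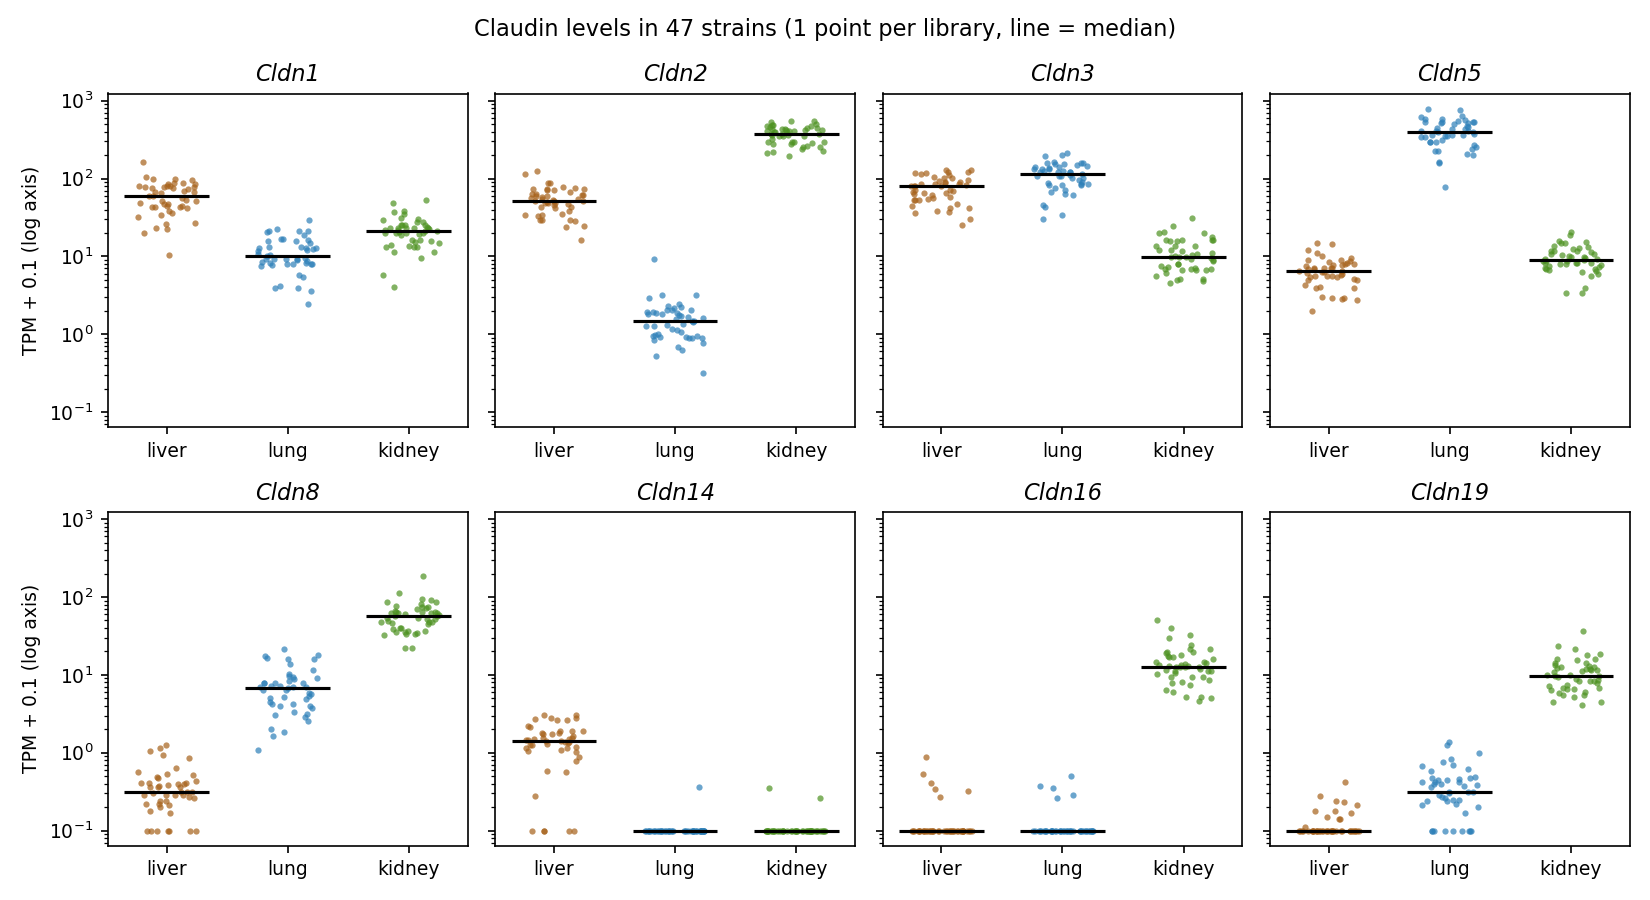
TPM plus 0.1 (log axis) of the 8 members with counts, 1 point per library and a line at the median of 47 strains. Cldn2 separates all 3 tissues, Cldn5 stands highest in lung, and Cldn16 and Cldn19 are highest in kidney, with 41 and 35 of 47 liver libraries at 0.

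Cldn2 (X:136335367-136345925, plus strand) was the most abundant member in kidney. Its TPM in kidney ran from 197 to 549 with a median of 377. In liver it ran from 16.4 to 126 with a median of 50.9, and in lung from 0.22 to 9.14 with a median of 1.38. The 3 ranges did not overlap, and kidney was above liver and liver above lung in 47 of 47 mice. The lung level was 0.366% of the kidney level. The 7 genes of the proximal tubule list had lung levels from 0.0954% (Slc34a1) to 4.26% (Lrp2, which lung also expresses) of their kidney levels, a range that holds the value of Cldn2. The part of carried-over RNA in the lung value of Cldn2 was not tested.

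Cldn16 (16:26463221-26482851, plus strand) and Cldn19 (4:118928019-118935043, plus strand), the partners of the thick ascending limb, had a high level in kidney. Cldn16 ran from 4.45 to 50.5 TPM in kidney with a median of 12.6, and CC053 was highest. In liver it had 7 counts over all 47 libraries and in lung 5 counts. The kidney total was 2836 counts, which after division by the library totals made kidney 506 times liver (95% exact counting interval 245 to 1259) and 598 times lung (256 to 1843). Cldn19 ran from 3.97 to 37.0 TPM in kidney with a median of 9.68. It had 6849 counts in kidney, 198 in lung and 18 in liver, so that kidney was 475 times liver (300 to 802) and lung was 13.0 times liver (8.03 to 22.4). These intervals cover counting error only, not the choice of scale. In mean CPM after TMM, Cldn16 had 5.13 in kidney, 0.0578 in liver and 0.00666 in lung. That made kidney 88.9 times liver and 771 times lung. The liver values of Cldn16 had a median of 0 and a highest of 1.70 CPM, so the liver mean depends on single libraries. Cldn19 had 13.8 in kidney, 0.274 in lung and 0.0673 in liver, which made kidney 205 times liver and lung 4.07 times liver. With Rn45s and Lars2 left out of the library totals kidney was 447 times liver and lung 11.8 times liver for Cldn19. For both genes every kidney library was above every liver and lung library. Umod and Slc12a1, which define the same tubule segment, had a median of 0 TPM in lung.

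Cldn8 (16:88561073-88563428, minus strand) had its highest level in kidney as well, at 21.9 to 188 TPM with a median of 56.3. In lung it ran from 0.98 to 21.3 TPM with a median of 6.74, below every kidney library. In liver the median was 0.21 TPM and 35 of 47 libraries had 3 counts or fewer. Cldn14 (16:93919276-94009082, minus strand), of which the files name 3 transcripts, was found in liver, with a median of 6 counts and 1.33 TPM, a highest value of 2.99 TPM and 5 libraries at 0. It had 1 count over all lung libraries and 2 over all kidney libraries, against 361 in liver. Per library total, liver was 305 times lung (54.4 to 12077) and 145 times kidney (39.7 to 1199), intervals that again do not cover the scale. By mean CPM after TMM it was 679 and 306 times. Of the 50-base windows of its annotated exons, 28.3% lay in 1 transcript only. The part of the transcript number in these counts was not tested.

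Cldn5 (16:18776940-18778353, plus strand), the endothelial claudin, was the most abundant member in lung. Its lung TPM ran from 77.9 to 790 with a median of 400, above all liver values (1.90 to 14.8, median 6.29) and all kidney values (3.27 to 20.5, median 8.94). The endothelial marker Cdh5 went the same way, with a median of 514 TPM in lung, 14.8 in liver and 20.1 in kidney.

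Cldn3 (5:135462084-135463342, plus strand) was high in lung, at 30.1 to 210 TPM with a median of 113, and in liver, at 24.9 to 130 TPM with a median of 79.3. In kidney it ran from 4.42 to 31.1 TPM with a median of 9.68, and kidney was the lowest tissue in 47 of 47 mice although the ranges overlapped. Cldn1 (16:26356728-26371927, minus strand), the neighbour of Cldn16 on the opposite strand, was highest in liver. It ran there from 10.3 to 164 TPM with a median of 60.1, against a median of 21.1 in kidney (3.94 to 53.4) and 9.93 in lung (2.37 to 29.4). Liver was above kidney in 44 of 47 mice and above lung in 46 of 47, with overlapping ranges.

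Within a library, TPM orders the members without regard to the Rn45s share. By median, the order in kidney was Cldn2, Cldn8, Cldn1, Cldn16, then Cldn3 and Cldn19 together, then Cldn5. In lung it was Cldn5, Cldn3, Cldn1, Cldn8, Cldn2 and Cldn19. In liver it was Cldn3, Cldn1, Cldn2, Cldn5, Cldn14 and Cldn8. Of 21 pairs of neighbours, 16 differed (two-sided sign-flip permutation test of log2(TPM + 0.1) over 47 libraries, 100000 resamples, adjusted p at most 0.1). Neighbours were taken from the medians of the same libraries, so the 16 describe the order and are no separate support for it. Some of the 16 set a member against another at or near 0. They include Cldn5 over Cldn14 in kidney, Cldn19 over Cldn14 in lung and Cldn8 over Cldn16 in liver. Cldn1 and Cldn2 in liver did not differ beyond their spread (mean difference 0.11 ± 0.57 on the log2 scale, SD, n = 47; permutation adjusted p = 0.227). In kidney Cldn3 and Cldn19 did not either (0.05 ± 0.83; permutation adjusted p = 0.734), nor did Cldn19 and Cldn5 (0.11 ± 0.74; permutation adjusted p = 0.351). The other 2 such pairs joined Cldn16 to Cldn19 in liver and to Cldn14 in lung, where the counts were at or near 0.

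The tissue contrasts asked which claudins distinguish the tissues of 1 mouse. They were fitted with limma-voom over the 12127 genes that passed the low-count filter, with strain as a block, and a gene was called at an adjusted p of at most 0.1 if its log2 fold change was also 1 or more in size. Cldn10 and Cldn18 at 0 and Cldn14, at few counts, did not pass the filter, which left 7 members. Liver against lung called 5 of the 7 (3 higher in liver, 2 higher in lung), beside 55% of all genes tested. Liver against kidney called 6 (2 higher in liver, 4 in kidney), beside 36.4%. Lung against kidney called 7 (2 higher in lung, 5 in kidney), beside 46.1%. Cldn16 and Cldn19 passed the low-count filter through kidney, since their median count was 0 in liver and 0 and 3 in lung. Their calls against kidney were thus set by the filter and are not read as support. After TMM the median of Cldn8 in liver was 0.297 CPM and that of Cldn2 in lung 0.892 CPM, under the 1 CPM of the filter. Both genes passed it through other tissues, so the calls of Cldn8 against liver and of Cldn2 against lung are not read as support either. The median log2 fold change over all genes tested was -0.06, -0.00340 and 0.04 in the 3 comparisons. One liver against lung call was that of Cldn16, whose libraries in both tissues held 2 counts or fewer, and it is not read as a difference.

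The largest fitted difference was that of Cldn2, with a log2 fold change of -8.55 ± 0.10 (SE; limma-voom adjusted p = 1.76e-92) in lung against kidney and 6.68 ± 0.10 in liver against lung. Both are given as sizes, since Cldn2 passed the filter through tissues other than lung. Cldn2 was lower in liver than in kidney by a log2 fold change of -1.87 ± 0.07. Cldn8 was lower in lung than in kidney (-3.59 ± 0.10). Its fitted value in liver against kidney was -6.67 ± 0.13, with a liver median of 0.297 CPM, and is given as a size. For Cldn19 the fitted log2 fold change in lung against kidney was -5.64 ± 0.16, a call set by the filter as stated above. Cldn5 was higher in lung than in liver (-4.50 ± 0.06 for liver against lung) and than in kidney (4.83 ± 0.06). Cldn1 was higher in liver than in lung (3.93 ± 0.10) and in kidney (2.42 ± 0.10), and lower in lung than in kidney (-1.50 ± 0.10, and -0.89 on log2(TPM + 1), under the fold-change threshold). Cldn19 in liver against lung had -0.99 ± 0.16 and was not called, and DESeq2, another count test, gave -2.04 and called it.

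Another scale turned the direction of some differences and moved the size of others. Total counts in place of TMM moved the median gene by -1.37 (liver against lung), -0.95 (liver against kidney) and 0.42 (lung against kidney) on the log2 scale, and total counts without Rn45s and Lars2 moved it by -1.19, -0.83 and 0.35. Cldn3 in liver against lung had a log2 fold change of 0.90 ± 0.09 with TMM and turned to -0.45 with total counts, -0.28 without Rn45s and Lars2 and -0.55 on log2(TPM + 1). Cldn5 in liver against kidney went from 0.33 ± 0.06 with TMM to -0.57, -0.51 and -0.49 under the same scalings. Neither passed the fold-change threshold under TMM, and no direction is given for them. Under total counts the liver against lung calls were 2 higher in liver and 3 higher in lung. All 4 values of Cldn3 against kidney in liver and lung stayed on 1 side, at 3.79 ± 0.10 and 2.89 ± 0.10 with TMM, and 2.97 and 3.25 without Rn45s and Lars2.

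**Figure D2:**
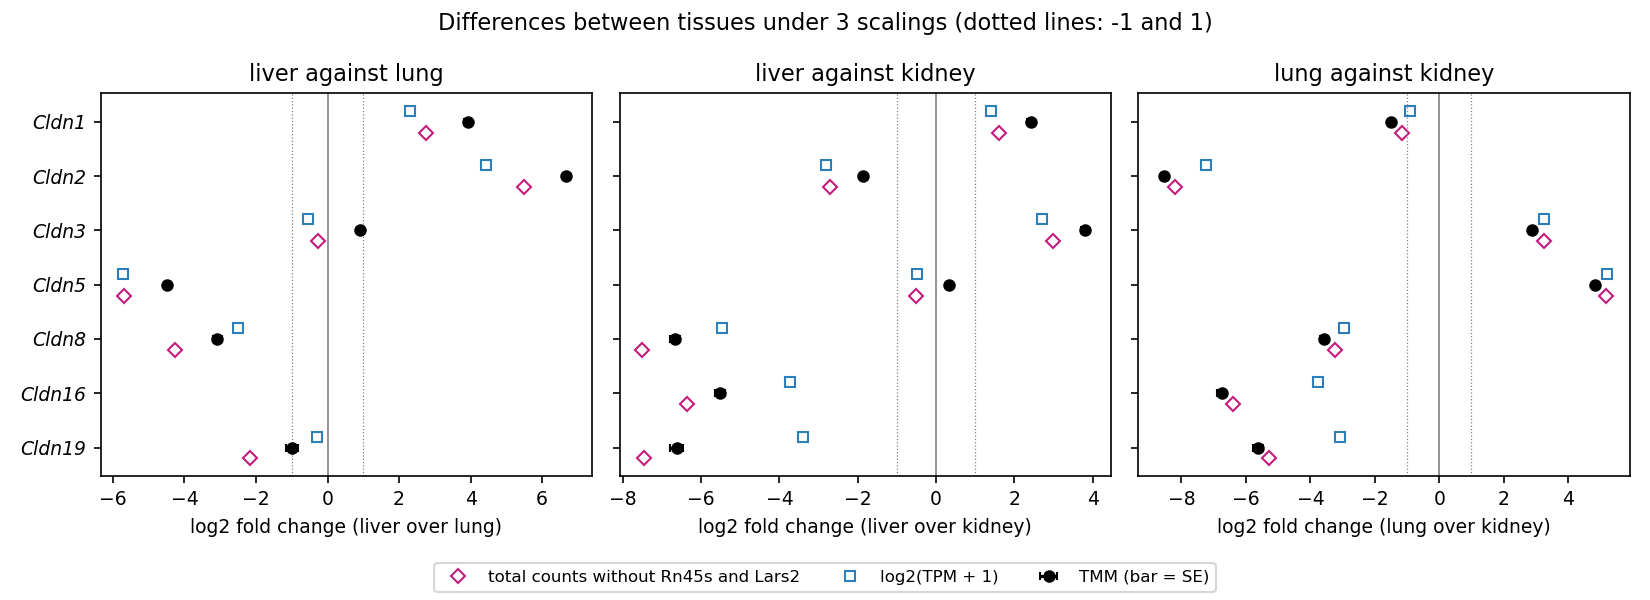
Log2 fold changes of the 7 tested members in the 3 tissue comparisons under TMM (filled, bar = SE), total counts without Rn45s and Lars2 (diamonds) and log2(TPM + 1) (squares). Only Cldn3 in liver against lung and Cldn5 in liver against kidney lie on both sides of 0, and Cldn16 is left out of the first panel.

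The other genes of the junction were read from 2 lists. Of 14 other claudins, 4 were tested (Cldn4, Cldn7, Cldn15 and Cldn22), and all 4 were called lower in liver than in lung and than in kidney. Of the 47 liver libraries, 45 had 3 counts or fewer of Cldn4, 47 of Cldn7 and 44 of Cldn22, so these passed the filter through lung and kidney and their direction against liver was set by it. Without the filter 13 were tested, with 1 higher and 6 lower in liver than in lung, and 0 higher and 8 lower than in kidney. Of all 22652 genes in that fit, 12142 were called in liver against lung (6984 higher and 5158 lower in liver). In liver against kidney 5735 were called (2480 higher and 3255 lower in liver). Cldn15, with a median of 5 counts in liver, had a log2 fold change of -3.82 ± 0.11 in liver against kidney. With so few liver counts this is given as a size, and the calls of Cldn15 against liver are not read as support either. In lung against kidney Cldn7 was higher (1.39 ± 0.16) and Cldn4 lower (-1.81 ± 0.15), and the other 2 were not called. Of 26 scaffold, adhesion and polarity genes, 20 were tested. In liver against lung 13 were called (3 higher in liver, 10 in lung), in liver against kidney 12 (4 and 8) and in lung against kidney 10 (5 and 5), beside the 55, 36.4 and 46.1% of all genes. The split moved with the scale: on total counts it was 2 higher and 15 lower in liver than in lung and 1 and 11 against kidney, and on log2(TPM + 1) 0 and 12, and 0 and 9. Occludin (Ocln), a membrane protein of tight junctions, was not called with TMM in any comparison, with log2 fold changes from -0.03 to 0.28. In TPM the lung median of 70.0 stood above that of kidney (37.3) and that of liver (24.2), and in liver against lung it was called lower on total counts (-1.39) and on log2(TPM + 1) (-1.46). Lsr, which marks the corners where 3 cells meet, was higher in liver than in lung (2.80 ± 0.12) and kidney (2.67 ± 0.12) with TMM, at 0.77 and 0.98 on log2(TPM + 1), under the fold-change threshold. Esam, an adhesion molecule of endothelium, was higher in lung than in kidney (2.68 ± 0.14), in the direction of Cldn5.

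The spread between strains differed between members and tissues. The edgeR biological coefficient of variation, the spread between strains beyond counting error, was 14.4% for Cldn2 in kidney, where the median of 10086 genes was 21.4%. The same gene had 58.2% in lung, where its median was 13 counts. Cldn3 in kidney had 45.1%, Cldn19 in kidney 39.9%, Cldn16 in kidney 37.0%, Cldn1 34.5 to 37.5% in the 3 tissues and Cldn5 23.4 to 26.7%. Of the 16 combinations of member and tissue with a median of 10 counts or more, Cldn2 in kidney was the one below the gene median of its tissue. In CPM after TMM, Cldn2 in kidney was 365 ± 49.4 (SD, n = 47), and Cldn1 in liver was 121 ± 45.6.

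Members were next compared between tissues of the same mice. Of 13 correlations of a member between 2 tissues over 47 strains, none passed an adjusted p of 0.1, and 1 had an unadjusted p under 0.05 (permutation test, 100000 resamples). That was Cldn1 in liver and kidney, with r = 0.37 (permutation p = 0.0112, adjusted 0.146) and rho = 0.09 (permutation p = 0.526), and r was 0.07 without the 2 strains farthest from the median. The other 12 values of r lay between -0.22 and 0.25. On log2(TPM + 1) 4 of the 13 passed and on total counts 1 passed, the scales that move with the Rn45s share. With that share as a covariate of the TMM values 0 passed, as without it. The covariate was not fitted on the other scales.

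Within a tissue 9 of 37 pairs of members were correlated over strains (adjusted p at most 0.1), 4 positively and 5 negatively. The share among pairs of all genes was not computed, so this count is not read as a trait of claudins. In kidney, Cldn8 and Cldn19 had r = 0.60 (permutation p = 2e-05, adjusted 0.00074) and rho = 0.54 (permutation p = 0.00017). The kidney of CC032 had the highest TPM of both genes, 188 and 37.0, and r was 0.54 without the 2 farthest strains and 0.46 without CC032 and CC042. Cldn16 and Cldn19, the partners, had r = 0.24 (permutation adjusted p = 0.225), which did not pass. Cldn1 and Cldn16 had r = -0.33 (permutation p = 0.023, adjusted 0.0945) and rho = -0.41, and Cldn16 itself had r = -0.35 with the log2 Rn45s share of the kidney libraries. With that share as a covariate r of Cldn1 and Cldn16 was -0.35.

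In lung, Cldn3 and Cldn5 had r = 0.54 (permutation p = 0.00014, adjusted 0.00259) and rho = 0.34 (permutation p = 0.0186), and r without the 2 farthest strains was 0.34. Cldn1 ran opposite to both, with r = -0.51 to Cldn5 (permutation p = 0.00023, adjusted 0.00284; rho = -0.47) and r = -0.45 to Cldn3 (permutation p = 0.00215, adjusted 0.0159; rho = -0.39). Without the 2 farthest strains these were -0.45 and -0.37. Cldn2 (r = -0.40, permutation adjusted p = 0.0295; rho = -0.40) and Cldn8 (r = -0.36, permutation adjusted p = 0.0569; rho = -0.30) were also negative with Cldn5, at -0.31 and -0.23 without the 2 farthest strains. All 4 negative values of lung turned positive on total counts, the scale that moves with the Rn45s share, and stayed negative on totals without Rn45s and Lars2. In liver 2 of the 3 pairs of canalicular claudins passed, Cldn1 with Cldn3 (r = 0.47, permutation p = 0.00074, adjusted 0.00685; rho = 0.43) and Cldn1 with Cldn2 (r = 0.43, permutation p = 0.00277, adjusted 0.0171; rho = 0.47). Without the 2 farthest strains r was 0.43 and 0.47. Cldn2 and Cldn3 had r = 0.25 in liver (permutation adjusted p = 0.225), which did not pass.

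**Figure D3:**
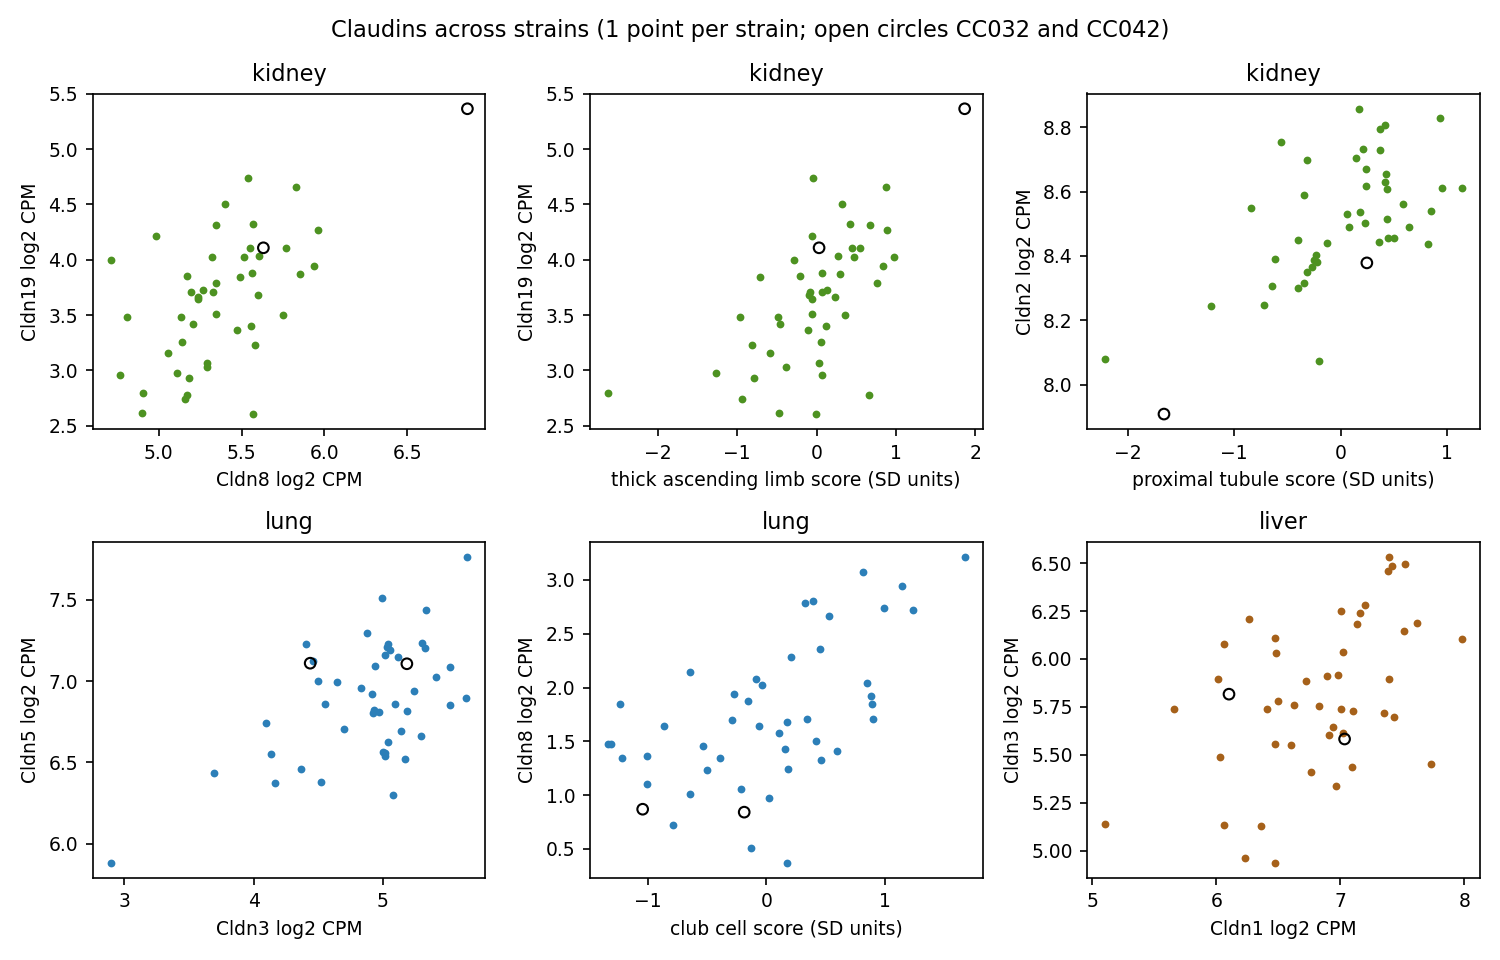
Each point is 1 strain, with TMM-scaled log2 CPM of claudins, or the score of a marker list in SD units, on the axes of 6 panels from kidney, lung and liver. CC032 lies at the upper right of the kidney panels of Cldn8 and Cldn19, and r over the panels runs from 0.47 to 0.64.

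Marker lists of cell types were scored in each library as the mean of the standardized log2 CPM of their genes, and 16 of 79 pairs of member and list passed (12 positive, 4 negative). Without the 2 farthest strains 7 passed, all positive, so that none of the 4 negative values passed then. The share of all genes that pass with these lists was not computed, so these counts are not read as a trait of claudins. In kidney, Cldn2 followed the proximal tubule list (7 genes, such as Slc34a1 and Lrp2) with r = 0.64 (permutation p = 1e-05, the smallest these resamples can give, adjusted 0.000263) and rho = 0.52 (permutation p = 0.00018). Cldn19 followed the thick ascending limb list (7 genes, such as Umod and Slc12a1) with r = 0.64 (permutation p = 1e-05, adjusted 0.000263) and rho = 0.61, and went against the proximal tubule list with r = -0.46 (permutation p = 0.00111, adjusted 0.0125) and rho = -0.56. It also passed with the collecting duct list, at r = 0.37 (permutation adjusted p = 0.0579) and 0.32 without the 2 farthest strains. Cldn8 followed the thick ascending limb list with r = 0.64 (permutation p = 3e-05, adjusted 0.000593; rho = 0.59). With the collecting duct list it passed at r = 0.38 (permutation p = 0.00843, adjusted 0.0555), but rho was 0.27 (permutation p = 0.0639). Its r with the distal convoluted tubule list was -0.04 (permutation adjusted p = 0.860). Without the 2 farthest strains the r of Cldn2 was 0.59 and that of Cldn19 0.59 and -0.32. Those of Cldn8 were then 0.56 with thick ascending limb and 0.23 with collecting duct. These strains were the farthest in the member's value, not in the list score. CC020 stayed in, with the lowest kidney scores of the proximal tubule list (-2.21) and the thick ascending limb list (-2.63). How far these r rest on CC020 was not tested. Cldn16 had r = 0.21 with the thick ascending limb list (permutation adjusted p = 0.391), and whether it differs from Cldn19 in this was not tested.

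In lung, Cldn8 followed the lists of the airway epithelium, club cells (Scgb1a1 and 4 others) with r = 0.58 (permutation p = 1e-05, adjusted 0.000263; rho = 0.56) and ciliated cells (Foxj1 and 4 others) with r = 0.56 (permutation p = 6e-05, adjusted 0.000948; rho = 0.55). Without the 2 farthest strains these were 0.50 and 0.51. Cldn5 followed the endothelial list with r = 0.48 (permutation p = 0.00073, adjusted 0.00961; rho = 0.41) and the alveolar type 1 list with r = 0.42 (permutation p = 0.00377, adjusted 0.0298; rho = 0.39), and r was 0.50 and 0.44 without the 2 farthest strains. Cldn2 (r = -0.42, permutation adjusted p = 0.0298; rho = -0.29) and Cldn1 (r = -0.38, permutation adjusted p = 0.0579; rho = -0.30) were negative with endothelium, at -0.33 and -0.21 without the 2 farthest strains. In kidney Cldn5 followed its endothelial list with r = 0.41 (permutation p = 0.00468, adjusted 0.0336), but rho was 0.24 (permutation p = 0.111) and r was 0.21 without the 2 farthest strains. It also passed with the proximal tubule list (r = 0.37, permutation adjusted p = 0.0579) and the podocyte and parietal epithelium list (r = 0.35, permutation adjusted p = 0.0781), so the endothelial list was not the single one it went with. In liver 1 of 12 pairs passed, Cldn1 with the pericentral hepatocyte list at r = -0.42 (permutation p = 0.00307, adjusted 0.0298), with rho = -0.26 (permutation p = 0.0757). The cholangiocyte list had 1 gene with enough counts in liver, Sox9, and could not be scored.

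**Figure D4:**
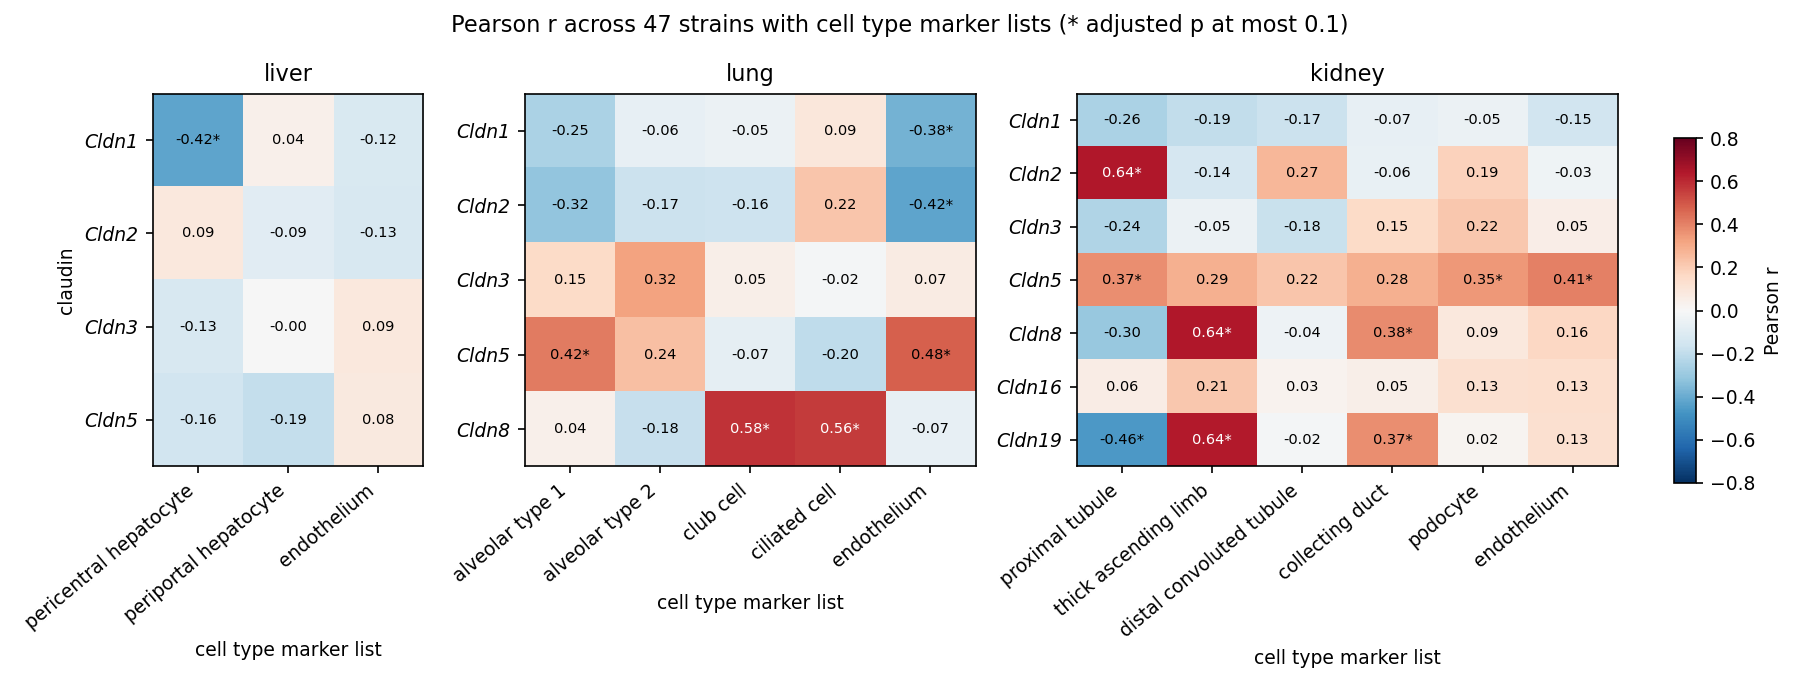
Pearson r over 47 strains between each member with a median of 10 counts or more and the cell type lists of its tissue, with an asterisk at an adjusted p of at most 0.1. In kidney the highest values are those of Cldn2 with proximal tubule and of Cldn8 and Cldn19 with thick ascending limb, each 0.64, and in lung those of Cldn8 with club (0.58) and ciliated cells (0.56).

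The single genes most like each member over strains, in the tissue of its highest median, are given by r alone. They were Prss8 (0.63) and Pbld1 (0.62) after C130074G19Rik (0.64) for Cldn2 in kidney. For Cldn8 in kidney they were Stk39 (0.78), a kinase that acts on the salt transporters of the distal nephron, Ranbp3l (0.76) and Tmem30b (0.74). For Cldn19 they were the epithelial transcription factors Ehf (0.76) and Grhl2 (0.75), and the receptor Erbb4 (0.72). Cldn16 had Iqcg (0.65), Prss36 (0.50) and Dcbld2 (0.50). For Cldn5 in lung they were Map3k11 (0.79), the endothelial receptor Tie1 (0.77, a gene of the endothelial list) and Slc9a3r2 (0.77). Cldn3 in lung had Chchd10 (0.87), Rpph1 (0.86, the RNA of RNase P) and Egln2 (0.84), and Cldn1 in liver had Dtx4 (0.75), the manganese exporter Slc30a10 (0.74) and Clpx (0.67).

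The files also give each gene a length averaged over its transcripts by abundance. Among members with more than 1 transcript, the comparison of tissues could be made for Cldn19 in lung and kidney, in 28 strains with 3 counts or more in both. The mean length was 4192 bases in lung and 4018 in kidney, a difference of 174 ± 292 bases (SD, n = 28; sign-flip permutation p = 0.00375), with lung longer in 16 of 28 strains. In these 28 strains the lung libraries had a median of 5 counts of Cldn19 and the kidney libraries 116. The median length in these lung libraries was 4235 bases and the highest 4238. With at least 10 counts in both tissues the test could not be fitted. The part of the low lung counts in the difference was not tested, so it is not read as a difference in transcript use.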

How the data were processed

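Whole liver, lung and kidney of 47 Collaborative Cross mice (1 per strain, 141 libraries) were sequenced by the authors as 50-base single-end reads from ribosome-depleted total RNA. Per the labels and the study's methods, the authors aligned reads with STAR 2.5.3a to pseudo-genomes of each strain (Build37) and quantified RefSeq genes with RSEM, using uniquely aligned reads. The deposited values are expected counts, TPM and FPKM per gene and an averaged transcript length. Expected counts were rounded to whole numbers (25 values were not whole).

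Counts were tested with limma 3.58.1 (voom) on TMM factors from edgeR 4.0.16, with strain as a block, for genes above 1 CPM in at least 30% of libraries. The block rests on libraries of the same mouse. Their deviations from tissue means correlated over genes at a median r of 0.166 to 0.211 between tissues, against -0.005 to -0.006 between mice. The lowest r within a mouse was -0.031, for liver and kidney. Of 47 mice, 39 (liver and lung), 44 (liver and kidney) and 34 (lung and kidney) correlated best with their own library. The study's own models held a sequencing batch, but which library was in which batch is not given in the sources used here, so none could be fitted. P-values were adjusted by Benjamini-Hochberg over all genes or over each family of correlations. Correlations used log2 CPM (TMM, prior count 1) of members with a median of at least 10 counts. The 2 farthest strains were taken by distance from the median of 1 variable of a pair only, the member in pairs with a list. Alternatives were DESeq2 1.42.0, edgeR quasi-likelihood, TPM and FPKM scales, total counts, no filter, stricter thresholds and a fit without CC032 and CC042, a pair of strains set aside in an earlier analysis. Both alternatives that deal with Rn45s were chosen after seeing the data. Scripts were tested on simulated data. The members, gene lists and tests were chosen with earlier results of these data known. All 10 members, the genes of the tight junction lists and the 3 genes of highest r to a member were to be named; Cldn25 of the lists was not analysed here. Promoters came from RefSeq (GRCm38.p6), and Python 3 with scipy ran the permutations.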

Additional observations from a re-analysis of the deposited data

How the results depend on the processing

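With no replicate block the calls of members were 5, 6 and 7 in the 3 comparisons, as with it, and the pairing changed no other count by over 1.5 times. Of 180 fold changes recomputed for 20 combinations of member and comparison, 165 kept direction and side of the threshold, 5 passed it, 2 dropped under it and 8 turned. The turned ones were Cldn3 in liver against lung (-0.45 on total counts, -0.55 on log2(TPM + 1), -0.56 on log2(TPM + 0.1), -0.28 on total counts without Rn45s and Lars2) and Cldn5 in liver against kidney (-0.57, -0.49, -0.56 and -0.51). In each of the 3 comparisons the count of called members stayed within 1.5 times.

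Correlations depended on the scale. On log2(TPM + 1) and on total counts, the pairs that passed were 4 and 1 between tissues, 23 and 37 between members, and 65 and 79 with cell type lists, all positive; these scales move with the Rn45s share. Negative r turned under those scales: in lung Cldn1 with Cldn3 to 0.14 and 0.48, Cldn1 with Cldn5 to 0.35 and 0.62, Cldn5 with Cldn8 to 0.41 and 0.66, and Cldn1 with endothelium to 0.50 and 0.68; in kidney Cldn1 with Cldn16 to 0.22 and 0.53, and Cldn19 with proximal tubule to 0.20 and 0.56; in liver Cldn1 with pericentral hepatocytes to 0.25 and 0.59. On total counts, Cldn2 turned to 0.26 with Cldn5 and 0.26 with endothelium in lung. Without Rn45s and Lars2 in the totals 0, 9 and 19 passed, and with the Rn45s share as a covariate of the TMM values 0, 12 and 18. Pairs with cell type lists fell from 16 to 10 on rank inverse normal values and to 7, all positive, without the 2 farthest strains; the cause was not tested. The length test with at least 10 counts could not be fitted, since fewer than 6 strains had them in both tissues.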
